A study of Mus musculus with 16 samples.

Results

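The genes described here encode the microglial receptor Trem2, its adaptor Tyrobp, Fc receptors and the enzymes that pass on or damp their signals: Trem2, Tyrobp, Syk, Plcg2, Inpp5d, Fcer1g, Fcgr1, Fcgr2b, Fcgr3 and Cd33. They were chosen by symbol, through the Ensembl identifiers of the count table, and make up 10 of its 21804 genes. All 10 were matched and all 10 passed the filter on low counts in every comparison. No member had fewer than 25 counts in any library.

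The 16 libraries came from polyA-selected brain RNA of C57BL/6 mice aged 4 months. All 8 animals carried the Pdgfb retention allele, the controls on 1 chromosome copy (Pdgfb ret/wt, 4 animals) and the others on both (Pdgfb ret/ret, 4 animals), so no group was free of it. The allele takes away the stretch of PDGF-B that holds this growth factor at the vessel wall, and per the labels calcified vessels form in the ret/ret thalamus and in none of the other groups. Each animal gave a cortex and a thalamus library, which made 4 groups of 4. In ret/ret thalamus the autofluorescent calcifications themselves were dissected, while ret/wt thalamus was taken from the matching site, so genotype and dissection cannot be told apart there. No cells were sorted. In such bulk tissue, fewer cells of a type and less RNA per cell cannot be told apart.

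Trem2 is a lipid- and lipoprotein-binding receptor of brain microglia and other macrophages. It has no signalling tail of its own and pairs with the adaptor Tyrobp (DAP12), whose phosphorylated tyrosine motif recruits the kinase Syk, and Syk in turn activates the phospholipase Plcg2. The activating Fc receptors for IgG signal through the sister adaptor Fcer1g to the same kinase. The inhibitory receptor Fcgr2b and the lipid phosphatase Inpp5d (SHIP1) act against these signals. Cd33 is a sialic acid receptor.

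All positions are those of GENCODE M21 on GRCm38, where each member is annotated as a protein-coding gene. Trem2 (ENSMUSG00000023992) lies at chr17:48346401-48354147 on the plus strand. Tyrobp (ENSMUSG00000030579) lies at chr7:30413760-30417585 on the plus strand, and Cd33 (ENSMUSG00000004609) at chr7:43524216-43544428 on the minus strand. Syk (ENSMUSG00000021457) lies at chr13:52583173-52648792 and Plcg2 (ENSMUSG00000034330) at chr8:117498291-117635142, both on the plus strand. Inpp5d (ENSMUSG00000026288) lies at chr1:87620312-87720507 on the plus strand. Fcer1g (ENSMUSG00000058715, chr1:171229572-171234365), Fcgr3 (ENSMUSG00000059498, chr1:171051174-171064935) and Fcgr2b (ENSMUSG00000026656, chr1:170958617-170976547) are neighbours on the minus strand of chromosome 1. Fcgr1 (ENSMUSG00000015947) lies at chr3:96282909-96293969 on the minus strand. Fcgr3 and Fcgr2b are near copies over part of their length: 13.4% of the 31-base words of Fcgr3 exons also occur in Fcgr2b, so reads from these stretches can be assigned to either gene. Fcgr2b also overlaps Gm38204, an antisense gene on the opposite strand, and how strand was used in counting is not given in the sources used here.

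RefSeq held the promoter of 9 of the 10 genes, with no entry for Tyrobp. The 250 bases before the RefSeq gene start were searched on both strands for AGGAAG, which reads CTTCCT on the other strand, letters found at the core of ETS-family sites such as those bound by the macrophage factor PU.1. They occurred in 6 of the 9 members (Trem2, Inpp5d, Fcer1g, Fcgr1, Fcgr3 and Cd33), against 29.2% of 27025 promoters of the same length. The longer GAGGAAGT, or ACTTCCTC on the other strand, occurred in 2.44% of all promoters and, among the members, in Inpp5d. Where a symbol had several RefSeq entries, the first was used. The windows of Syk, Fcgr2b, Fcgr3 and Cd33 lie inside the GENCODE spans given above, so distances refer to the RefSeq start alone. The letters begin 41 bases before the RefSeq start of Trem2, 19 before Inpp5d, 44 before Fcer1g, 7 before Fcgr3 and 225 before Cd33. In Fcgr1, copies begin 60 and 56 bases before the start and overlap. A match describes the letters in this window and is no evidence of a bound site. Shown are Trem2, an activating and the inhibitory low-affinity Fc receptor, and Inpp5d, the member least correlated with Trem2 over the libraries (RefSeq, GRCm38.p6, 5′ to 3′ on the gene's strand, match in capitals). They span chr17:48346151-48346400 (plus strand), chr1:171059404-171059653 (minus strand), chr1:170976072-170976321 (minus strand, no match) and chr1:87620062-87620311 (plus strand).
Trem2: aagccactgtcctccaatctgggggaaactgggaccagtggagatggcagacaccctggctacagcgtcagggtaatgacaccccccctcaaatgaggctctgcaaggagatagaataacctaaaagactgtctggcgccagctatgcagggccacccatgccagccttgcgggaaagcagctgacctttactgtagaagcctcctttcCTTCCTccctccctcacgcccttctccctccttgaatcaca
Fcgr3: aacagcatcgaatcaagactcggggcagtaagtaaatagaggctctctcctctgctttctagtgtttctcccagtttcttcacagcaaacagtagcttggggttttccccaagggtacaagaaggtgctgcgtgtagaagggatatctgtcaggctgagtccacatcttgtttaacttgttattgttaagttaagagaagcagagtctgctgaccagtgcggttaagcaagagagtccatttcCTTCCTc
Fcgr2b: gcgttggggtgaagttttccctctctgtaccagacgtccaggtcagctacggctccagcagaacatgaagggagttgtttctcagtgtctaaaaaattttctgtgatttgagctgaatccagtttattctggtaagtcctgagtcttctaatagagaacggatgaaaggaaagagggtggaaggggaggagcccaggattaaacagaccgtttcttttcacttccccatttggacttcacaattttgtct
Inpp5d: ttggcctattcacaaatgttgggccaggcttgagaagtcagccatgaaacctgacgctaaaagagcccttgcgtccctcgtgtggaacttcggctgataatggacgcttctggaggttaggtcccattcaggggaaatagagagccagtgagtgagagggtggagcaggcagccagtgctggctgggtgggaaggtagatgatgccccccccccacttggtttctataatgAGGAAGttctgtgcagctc

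Library totals ran from 13415391 to 29135064 counts, and a count of 3 corresponded to 0.103 to 0.224 CPM (counts scaled to a common library size with TMM factors over all 16 libraries, the scale of every level below). Neuron markers followed the region labels: 5 of 5 cortex markers were lower and 6 of 6 thalamus markers were higher in thalamus in both genotypes. Single libraries stood apart. In ret/ret thalamus replicate 1, summed red blood cell markers stood at 120 CPM against 11.9 to 22.4 in the other ret/ret thalamus libraries, and mast cell markers at 13.4 against 0.760 to 3.67. Cerebellum markers reached 2443 CPM in ret/ret cortex replicate 2 and 855 in ret/wt cortex replicate 3, against 11.8 to 37.4 in the other cortex libraries. In thalamus they reached 289 CPM in ret/ret replicate 2, against 20.3 to 113 in the other ret/ret libraries. Thalamus neuron markers summed to 2728 CPM in ret/ret thalamus replicate 2, against 316 to 606 in the other ret/ret thalamus libraries, and to 2566 CPM in ret/wt thalamus replicate 3, against 693 to 906 in the other ret/wt ones. Choroid plexus markers reached 1110 CPM in ret/wt cortex replicate 4. The animals ret/wt replicate 3 and ret/ret replicate 2 had 52.5 to 71.8 CPM of the Y-linked gene Ddx3y, against 0.214 or less in the others. They are also the animals with the high cerebellum markers in cortex and the high thalamus neuron markers in thalamus. Leaving them out, as done below, removes both traits at once.

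Per kilobase of exon, counting every exon annotated for a gene, the adaptors were the most abundant members. This length was 4946 bases for Trem2 and 667 for Tyrobp, and the order depends on it. Over the 16 libraries the mean level per kilobase was 15.8 CPM for Tyrobp, 8.37 for Fcer1g and 7.96 for Fcgr3. Trem2 followed at 2.04 CPM per kilobase, ahead of Inpp5d at 1.85, Fcgr1 at 1.51 and Plcg2 at 1.32. Fcgr2b (0.954), Cd33 (0.813) and Syk (0.44 CPM per kilobase) were the least abundant.

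**Figure D1:**
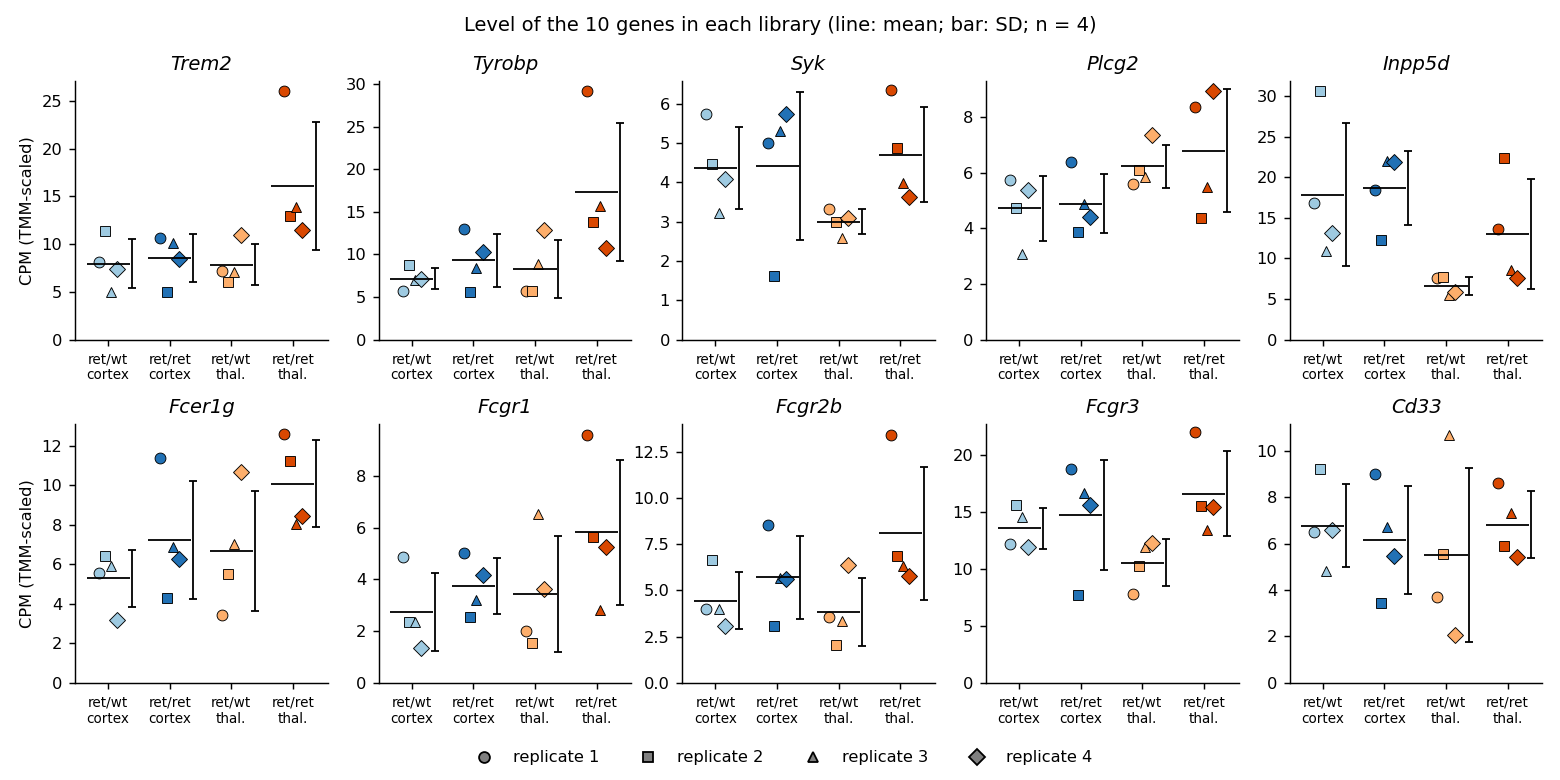
Level of each of the 10 genes in every library, in CPM (linear axis from 0), by group. Symbols mark the replicate (animal) number, horizontal lines the mean and bars the SD (n = 4). The 4 ret/ret thalamus libraries of Trem2, at 11.4 to 26.0 CPM, sit above those of every other group, and all ret/wt thalamus libraries of Inpp5d (5.50 to 7.65 CPM) lie below those of ret/wt cortex.

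In thalamus, the mean of every member was higher in ret/ret than in ret/wt, but none of the differences passed adjustment over all genes. A log2 fold change above 0 was found for 10 of 10 members, beside 47.1% of all 14767 genes tested. An unadjusted p under 0.05 in the higher direction was found for 6 members (Trem2, Tyrobp, Inpp5d, Fcgr3, Fcgr2b and Syk), beside 3.05% of all genes. With Benjamini-Hochberg adjustment, edgeR's quasi-likelihood test called 0 members and 0 genes in all (0.00%). It gave 581 genes at an unadjusted p under 0.05, and DESeq2 called 37 genes, of which 0 were members. The adjusted p of each member was 0.9998. The median log2 fold change was 0.74 over the members and -0.02 over all genes. Mitochondrial genes took 5.87 to 12.1% of counts in ret/ret thalamus and 4.24 to 8.80% in ret/wt thalamus, more than in the cortex of the same animal in 4 of 4 animals of each genotype, and the part of this share in the differences was not tested. The comparison addressed how tissue that bears calcifications differs from control tissue of the same site.

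Trem2 itself measured 7.17, 6.05, 7.12 and 10.98 CPM in ret/wt thalamus replicates 1 to 4 and 26.0, 12.9, 13.9 and 11.4 CPM in ret/ret thalamus. The groups did not overlap, though the highest control and the lowest ret/ret library were close, and replicate 1 lay far above its group. Its log2 fold change was 1.07 ± 0.33 (SE; adjusted p = 0.9998 with edgeR, the same for each member of this comparison). Without ret/ret thalamus replicate 1 it was 0.72, still with an unadjusted p under 0.05. Trem2 was the member that kept an unadjusted p under 0.05 in all 14 alternatives of this comparison, with adjusted p from 0.285 to 1.

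Of the adaptors, Tyrobp measured 5.66, 5.66, 8.85 and 12.9 CPM in ret/wt and 29.2, 13.9, 15.7 and 10.8 CPM in ret/ret thalamus. Control replicate 4 lay above ret/ret replicate 4, so the groups overlapped. The log2 fold change of Tyrobp was 1.10 ± 0.39 (SE), and 0.71, with an unadjusted p above 0.05, without ret/ret replicate 1. Fcer1g, the adaptor of the activating Fc receptors, measured 3.45, 5.49, 7.06 and 10.7 CPM in ret/wt and 12.6, 11.2, 8.05 and 8.45 CPM in ret/ret. Its groups overlapped through control replicate 4, and its log2 fold change was 0.62 ± 0.36 (SE).

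Among the Fc receptors for IgG, Fcgr3, the low-affinity activating receptor, measured 7.77, 10.3, 11.9 and 12.2 CPM in ret/wt and 21.9, 15.5, 13.4 and 15.4 CPM in ret/ret thalamus. The groups did not overlap, and the log2 fold change was 0.68 ± 0.25 (SE). Fcgr2b, the inhibitory receptor, measured 3.58, 2.05, 3.35 and 6.40 CPM in ret/wt and 13.4, 6.84, 6.30 and 5.79 CPM in ret/ret. Control replicate 4 exceeded the lowest ret/ret libraries, and replicate 1 stood well above the rest. The log2 fold change of Fcgr2b was 1.10 ± 0.43 (SE), and 0.73, with an unadjusted p above 0.05, without ret/ret replicate 1. Fcgr1, the high-affinity receptor, measured 1.99, 1.55, 6.52 and 3.62 CPM in ret/wt and 9.58, 5.63, 2.81 and 5.23 CPM in ret/ret. These groups overlapped widely, with a log2 fold change of 0.80 ± 0.52 (SE).

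Of the signal relays, the kinase Syk measured 3.32, 2.995, 2.57 and 3.10 CPM in ret/wt and 6.34, 4.87, 3.98 and 3.62 CPM in ret/ret thalamus. The groups did not overlap, and the log2 fold change was 0.68 ± 0.30 (SE), the closest to an unadjusted p of 0.05 of the 6. Syk stayed under it in 3 of 14 alternatives (RLE size factors, DESeq2 and without ret/ret replicate 4). Plcg2 measured 5.61, 6.10, 5.86 and 7.37 CPM in ret/wt and 8.38, 4.38, 5.48 and 8.96 CPM in ret/ret. Its ret/ret libraries fell on both sides of the controls. Plcg2 had the smallest log2 fold change of the members, 0.16 ± 0.30 (SE).

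Of the remaining members, Inpp5d measured 7.56, 7.65, 5.50 and 5.88 CPM in ret/wt and 13.6, 22.4, 8.63 and 7.55 CPM in ret/ret thalamus. The groups met at 7.55 and 7.65 CPM, and here replicate 2, not replicate 1, was the highest. The log2 fold change of Inpp5d was 1.01 ± 0.35 (SE), and 0.62, with an unadjusted p above 0.05, without ret/ret replicate 2. Without both animals that had Y-linked reads, it was 0.54, again with an unadjusted p above 0.05. The library of replicate 2 also had the highest thalamus neuron and cerebellum markers of its group (2728 and 289 CPM), and their part in the result was not tested. Cd33 measured 3.71, 5.55, 10.7 and 2.07 CPM in ret/wt and 8.60, 5.90, 7.32 and 5.43 CPM in ret/ret. The controls of Cd33 ranged both below and above all ret/ret libraries, and the log2 fold change was 0.35 ± 0.45 (SE).

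Groups that did not overlap, with ret/ret higher, were thus seen for Trem2, Syk and Fcgr3, 3 of 10 members beside 1.70% of all genes. The count of 6 members with an unadjusted p under 0.05 fell to 2 without ret/ret replicate 1, to 2 without ret/wt replicate 1 and to 3 without ret/wt replicate 2.

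**Figure D2:**
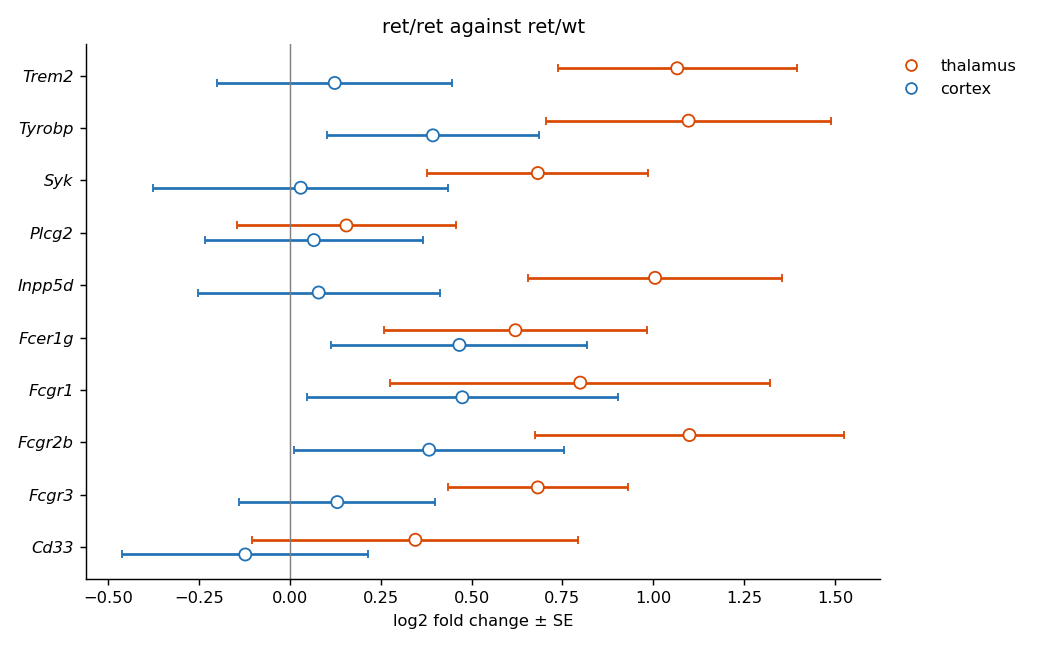
Log2 fold change of ret/ret against ret/wt for each gene in thalamus and in cortex; points are edgeR estimates and bars the SE. Thalamus values run from 0.16 to 1.10 and cortex values from -0.12 to 0.47, and no point passed an adjusted p of 0.05.

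Markers of microglia, the brain's resident macrophages and the main cells that express these genes, had higher means in ret/ret thalamus as well, though edgeR called 0 of 14 at an adjusted p under 0.05. Of 14 microglia markers 14 had a log2 fold change above 0 in thalamus, beside 47.1% of all genes, and 10 had an unadjusted p under 0.05 in the higher direction, beside 3.05% of all genes. Their median was 0.73. Their summed level was 347 to 434 CPM in ret/wt thalamus and 534 to 777 CPM in ret/ret thalamus, and none of the 14 was at 0 in a group. Their mean log2 CPM was 4.28 in ret/wt and 4.98 in ret/ret thalamus, a difference of 0.70 with no overlap. Markers of border macrophages, which also carry Fc receptors, had a log2 fold change above 0 in 1 of 6 tested genes, with a median of -0.22. They summed to 13.1 to 64.9 CPM in ret/wt and 16.5 to 53.2 CPM in ret/ret thalamus. Monocyte and neutrophil markers summed to 4.84 CPM or less in every thalamus library, and B, T and NK cell markers to 2.87 CPM or less, with the NK cell gene Ncr1 at 0 in 3 of the 4 groups.

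Set against the microglia marker mean of the same library, the members were no longer shifted one way. In thalamus 5 of 10 members had a positive ret/ret minus ret/wt difference, with a median of 0.07 on the log2 scale, and the groups overlapped for all 10. Fcgr2b had the highest relative difference (0.39), followed by Tyrobp (0.35) and Trem2 (0.29). Plcg2 had the lowest (-0.63), and Fcgr3 (-0.05), Syk (-0.09) and Fcer1g (-0.02) lay near 0. In cortex 4 of 10 differences were positive (median -0.11). Cd33 had the lowest (-0.41) and was the 1 member whose cortex groups did not overlap. The share of all genes without overlap on this relative scale was not computed. The part that the number of microglia has in the thalamus differences was not tested.

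**Figure D3:**
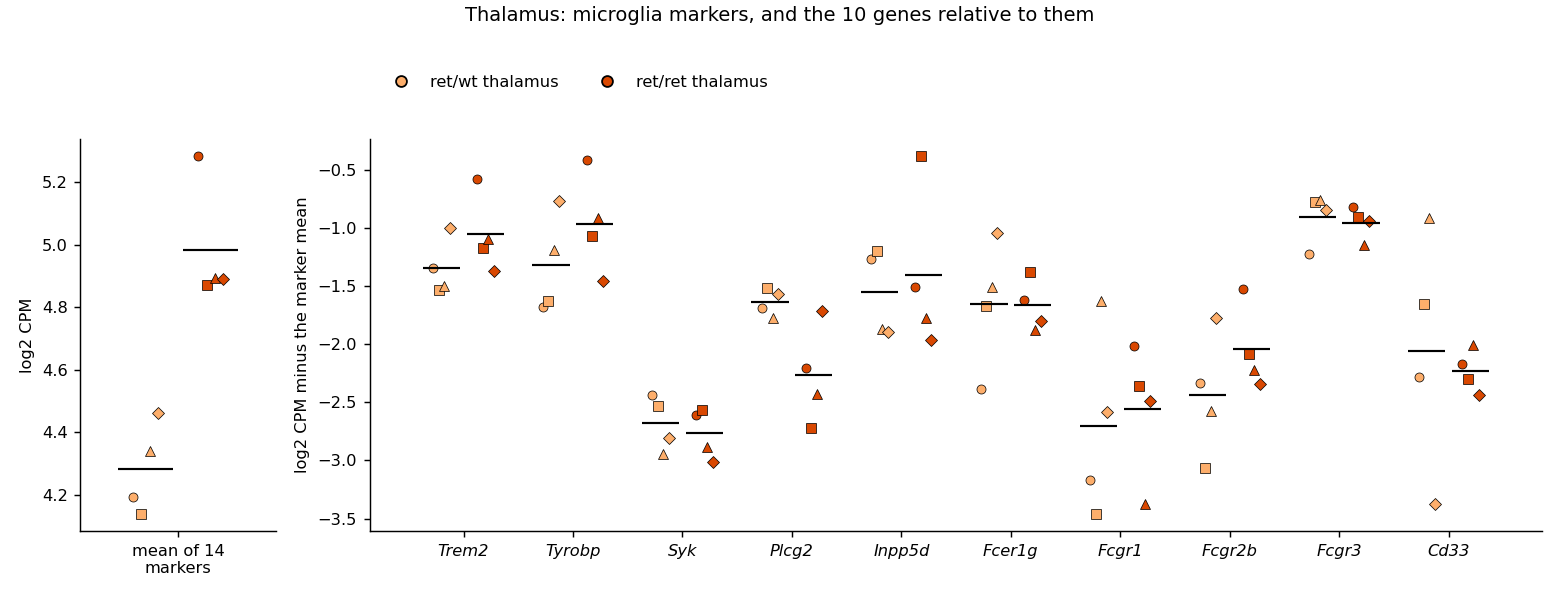
Left, mean log2 CPM of 14 microglia markers in each thalamus library. Right, log2 CPM of each gene minus that marker mean in the same library; lines are group means and symbols the replicates, as in the plot of levels. The markers separate the genotypes (4.28 against 4.98), while the 10 genes relative to them overlap.

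In cortex, which lacks calcifications, the same genes showed small differences between genotypes. None of the 10 reached an unadjusted p under 0.05, beside 3.77% of 14288 genes, and edgeR called 0 members at an adjusted p under 0.05, beside 3 genes in all (0.0210%). Of the members 9 had a log2 fold change above 0, beside 51.9% of all genes, and the median was 0.13. The groups overlapped for 10 of 10 members; over all genes 2.32% had no overlap in either direction. Trem2 measured 8.08, 11.3, 5.01 and 7.38 CPM in ret/wt cortex and 10.7, 5.02, 10.1 and 8.47 CPM in ret/ret cortex. Both groups covered the same range, and the log2 fold change of Trem2 was 0.12 ± 0.32 (SE; edgeR, adjusted p = 0.999).

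Among the other members in cortex, the largest estimates belonged to the adaptors and Fc receptors. The log2 fold change was 0.47 ± 0.43 (SE) for Fcgr1, 0.47 ± 0.35 for Fcer1g, 0.39 ± 0.29 for Tyrobp and 0.38 ± 0.37 for Fcgr2b. It was 0.13 ± 0.27 for Fcgr3, 0.08 ± 0.33 for Inpp5d, 0.07 ± 0.30 for Plcg2 and 0.03 ± 0.41 for Syk. Cd33 was the member below 0, at -0.12 ± 0.34. Ret/ret cortex replicate 2, the library with the highest cerebellum markers, had the lowest ret/ret cortex level of all 10 genes, for example 1.61 CPM of Syk against 5.01 to 5.73 CPM in the other replicates. The cortex microglia markers summed to 299 CPM in that library and to 481 to 654 CPM in the other ret/ret cortex libraries; the part of either in the result was not tested.

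Thalamus and cortex of the same animals were compared to ask whether the calcification-prone region differs from cortex. The fits had no term for the animal, so both libraries of an animal entered as independent. A fit with the animal as a block was an alternative. In ret/ret animals Trem2 was higher in thalamus than in cortex in 4 of 4 animals, by 1.28, 1.36, 0.46 and 0.43 on the log2 CPM scale. The groups did not overlap (5.02 to 10.7 CPM in cortex, 11.4 to 26.0 CPM in thalamus), as was the case with thalamus higher for 8.18% of all genes. The fitted log2 fold change of Trem2 was 0.91 ± 0.33 (SE), which did not pass adjustment (edgeR, adjusted p = 0.117). Tyrobp was also higher in thalamus in 4 of 4 animals, with a log2 fold change of 0.91 ± 0.36 (SE; adjusted p = 0.144). Plcg2, Fcer1g and Fcgr2b were higher in thalamus in 4 of 4 ret/ret animals, with log2 fold changes of 0.48, 0.49 and 0.51 and adjusted p of 0.359, 0.359 and 0.433. The share of all genes with the same direction in 4 of 4 animals was not computed for either genotype. Inpp5d was the member with a negative value, -0.51 ± 0.36 (SE; adjusted p = 0.392). In all, edgeR called 0 members in ret/ret animals, beside 9.50% of 14715 genes. Of 14 microglia markers 10 had a log2 fold change above 0 between the regions in ret/ret animals, beside 48.7% of all genes. Their median was 0.33.

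In ret/wt animals the order of the regions was another one for several members. Inpp5d measured 16.8, 30.6, 10.9 and 13.2 CPM in ret/wt cortex and 7.56, 7.65, 5.50 and 5.88 CPM in ret/wt thalamus. The regions did not overlap, as was the case in either direction for 19.9% of all genes, and Inpp5d was lower in thalamus in 4 of 4 animals. Its log2 fold change of -1.41 ± 0.34 (SE; edgeR, adjusted p = 0.0203) made it the 1 member called, beside 12.6% of 14442 genes. Leaving out ret/wt cortex replicate 2 took the estimate to -1.02 and the adjusted p to 0.0530, and leaving out ret/wt thalamus replicate 3 took them to -1.34 and 0.0504. Syk was lower in thalamus in 4 of 4 ret/wt animals too, with a log2 fold change of -0.53 ± 0.30 (SE; adjusted p = 0.299). Trem2 was level between the regions, with a log2 fold change of -0.00 ± 0.32 (SE; adjusted p = 0.996), higher in thalamus in 2 of 4 animals. The remaining members lay between -0.35 (Fcgr3) and 0.41 (Plcg2).

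In ret/ret animals the cortex levels of Inpp5d were 18.4, 12.3, 22.0 and 21.9 CPM, and thalamus exceeded cortex in replicate 2 alone. The animals with Y-linked reads, among them ret/ret replicate 2, were also those with the highest cerebellum markers in cortex. Without them the ret/ret log2 fold change of Inpp5d between regions was -1.05 (edgeR, adjusted p = 0.0330). The part of either trait was not tested. Inpp5d was thus below cortex in thalamus in 7 of the 8 animals.

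**Figure D4:**
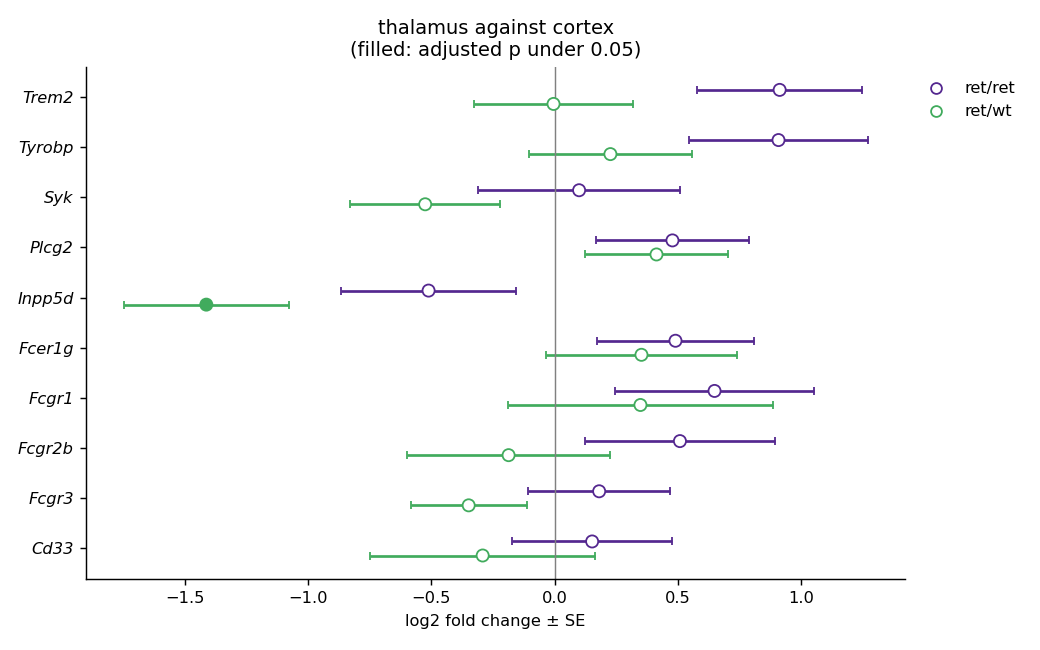
Log2 fold change of thalamus against cortex for each gene, in ret/ret and in ret/wt animals; points are edgeR estimates, bars the SE, and a filled point has an adjusted p under 0.05. Inpp5d in ret/wt (-1.41) is the filled point, and Trem2 lies at 0.91 in ret/ret and at -0.00 in ret/wt.

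Whether the genotype difference depended on the region was tested as an interaction over all 16 libraries, again with no term for the animal. Of the members 10 of 10 had a positive interaction, that is, a larger ret/ret minus ret/wt difference in thalamus than in cortex, beside 44.4% of 15286 genes. So had 14 of 14 microglia markers, with a median of 0.43 against 0.59 for the members. None passed: edgeR called 0 members and 0 genes in all (0.00%), with 245 genes at an unadjusted p under 0.05, and DESeq2 called 4 genes. The largest estimates were 0.93 ± 0.46 (SE) for Trem2 and 0.91 ± 0.51 for Inpp5d, and 0 members reached an unadjusted p under 0.05. Leaving out single libraries gave 0.60 to 1.14 for Trem2 and 0.53 to 1.10 for Inpp5d, with an unadjusted p under 0.05 in 4 cases for Trem2 (without ret/wt cortex replicate 3, ret/wt thalamus replicate 4, ret/ret cortex replicate 1 or ret/ret thalamus replicate 4) and in 2 for Inpp5d (without ret/wt cortex replicate 3 or ret/ret thalamus replicate 4). Fcgr2b followed at 0.71 ± 0.57, Tyrobp at 0.70 ± 0.49, Syk at 0.63 ± 0.49 and Fcgr3 at 0.54 ± 0.36. Cd33 (0.45 ± 0.58), Fcgr1 (0.31 ± 0.69), Fcer1g (0.15 ± 0.50) and Plcg2 (0.08 ± 0.40) had the smallest values. The thalamus minus cortex differences of single animals overlapped between the genotypes for all 10 genes, and the share over all genes was not computed.

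Ordered by group mean, ret/ret thalamus ranked highest for 9 of the 10 genes, a share that was not computed over all genes. In Trem2 this first place was separated from the next group, ret/ret cortex, by values that did not overlap, as for 8.18% of all genes. In the other 8, and between all lower places of Trem2, neighbouring groups overlapped. Inpp5d had another order, with ret/ret cortex (18.7 ± 4.57 CPM; SD, n = 4) above ret/wt cortex (17.9 ± 8.83), ret/ret thalamus (13.03 ± 6.75) and ret/wt thalamus (6.65 ± 1.12), where each neighbouring pair overlapped.

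The rest of the pathway was followed with 8 lists of ligands, receptors, kinases, relays, inhibitors, other Fc receptors, other Siglecs and Ms4a genes. They name 69 genes, of which 48 were tested between genotypes in thalamus and 45 in cortex. In thalamus 38 of 48 tested list genes had a log2 fold change above 0 in ret/ret, with a median of 0.24, and 7 had an unadjusted p under 0.05, all higher (Clec5a, Csf1r, Fcrls, Siglech, Lyn, Pik3ap1 and Vav1), beside the 3.05% of all genes given above. After adjustment edgeR called 0 of the 48. In cortex 30 of 45 were above 0, the median was 0.13 and 0 reached an unadjusted p under 0.05 with edgeR.

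Receptors that share or are linked to these adaptors had the highest median of the 8 lists in thalamus, with 4 of 4 tested genes above 0 and a median of 0.58. This list names 12 genes, and those not tested did not pass the filter on low counts. Clec5a, a lectin receptor that signals through Tyrobp, had 1.72 ± 0.857 CPM in ret/wt and 4.42 ± 0.838 CPM in ret/ret thalamus (SD, n = 4), with no overlap. Its log2 fold change was 1.39 ± 0.41 (SE), and in cortex 0.73 ± 0.36. Csf1r, the receptor kinase on which microglia depend for survival, had 74.2 ± 5.67 CPM in ret/wt and 110 ± 23.4 CPM in ret/ret thalamus, again without overlap. The log2 fold change was 0.60 ± 0.19 (SE) for Csf1r and 0.56 ± 0.21 for Siglech, a microglial Tyrobp partner. Fcrls, an Fc receptor-like gene of microglia, had a log2 fold change of 0.74 ± 0.25 (SE), whereas Fcgrt, the neonatal Fc receptor, had 0.06 ± 0.52.

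Among kinases and relays, Lyn, a Src-family kinase that phosphorylates the adaptors, had a log2 fold change of 0.60 ± 0.24 in thalamus (SE) with no overlap. Vav1, an exchange factor downstream of Syk, had 0.71 ± 0.31, also without overlap, and Pik3ap1, which links to phosphoinositide 3-kinase, 0.95 ± 0.40. In cortex, Lyn (0.55 ± 0.31) and Pik3ap1 (0.92 ± 0.46) had estimates close to those in thalamus, and Vav1 had 0.34 ± 0.29. Of 9 tested inhibitors 7 were above 0 in thalamus and 3 in cortex, and none reached an unadjusted p under 0.05 in either with edgeR. The phosphatase Ptpn6 had a thalamus log2 fold change of 0.63 ± 0.43. Of the ligand genes, Apoe, a lipoprotein bound by Trem2, had 1122 ± 169 CPM in ret/wt and 1487 ± 769 CPM in ret/ret thalamus, a log2 fold change of 0.44 ± 0.32 (SE). The shedding protease Adam17 had 0.64 ± 0.35. Of the Ms4a genes, Ms4a6d had 1.10 ± 0.62, Ms4a6b 0.82 ± 0.48 and Ms4a7 -0.93 ± 0.72.

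Between regions, edgeR called 7 of 48 tested list genes in ret/ret animals, beside 9.50% of all genes, and 7 of 45 in ret/wt animals, beside 12.6%. In ret/ret animals Mag, a Siglec of myelin, Card9, an adaptor downstream of Syk, and Rasgrp3 rose in thalamus relative to cortex. The log2 fold changes were 1.85 ± 0.27 (SE; adjusted p = 0.00534), 2.16 ± 0.55 (adjusted p = 0.0386) and 0.77 ± 0.18 (adjusted p = 0.0272). The inhibitory receptor Sirpa (-1.06 ± 0.19), the shedding protease Adam10 (-0.65 ± 0.16), Pik3r1 (-0.96 ± 0.18) and Blnk (-1.47 ± 0.38) were lower in thalamus, with adjusted p of 0.00980, 0.0328, 0.0124 and 0.0421. In ret/wt animals Mag, Card9, Vav3, Trim21 and Prkcd were higher and Sirpa and Blnk lower in thalamus. The ret/wt log2 fold changes were 1.87 ± 0.35 for Mag, 2.06 ± 0.57 for Card9, 2.56 ± 0.47 for Vav3, 1.31 ± 0.38 for Trim21 and 4.88 ± 1.16 for Prkcd, with adjusted p of 0.00682, 0.0382, 0.00587, 0.0465 and 0.0204. The regions overlapped for Prkcd (10.8 to 1155 CPM in ret/wt thalamus and 7.38 to 23.8 CPM in ret/wt cortex), and did not for Vav3 and Trim21. For Card9 they did not overlap in ret/wt animals. In ret/ret animals they did, at 0.983 to 6.38 CPM in thalamus and 0.698 to 1.13 CPM in cortex. For Sirpa and Blnk the ret/wt log2 fold changes were -1.22 ± 0.17 (adjusted p = 0.00126) and -1.54 ± 0.43 (adjusted p = 0.0388). Many of these genes are also expressed by neurons or myelinating cells, and Prkcd is also among the thalamus neuron markers.

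**Figure D5:**
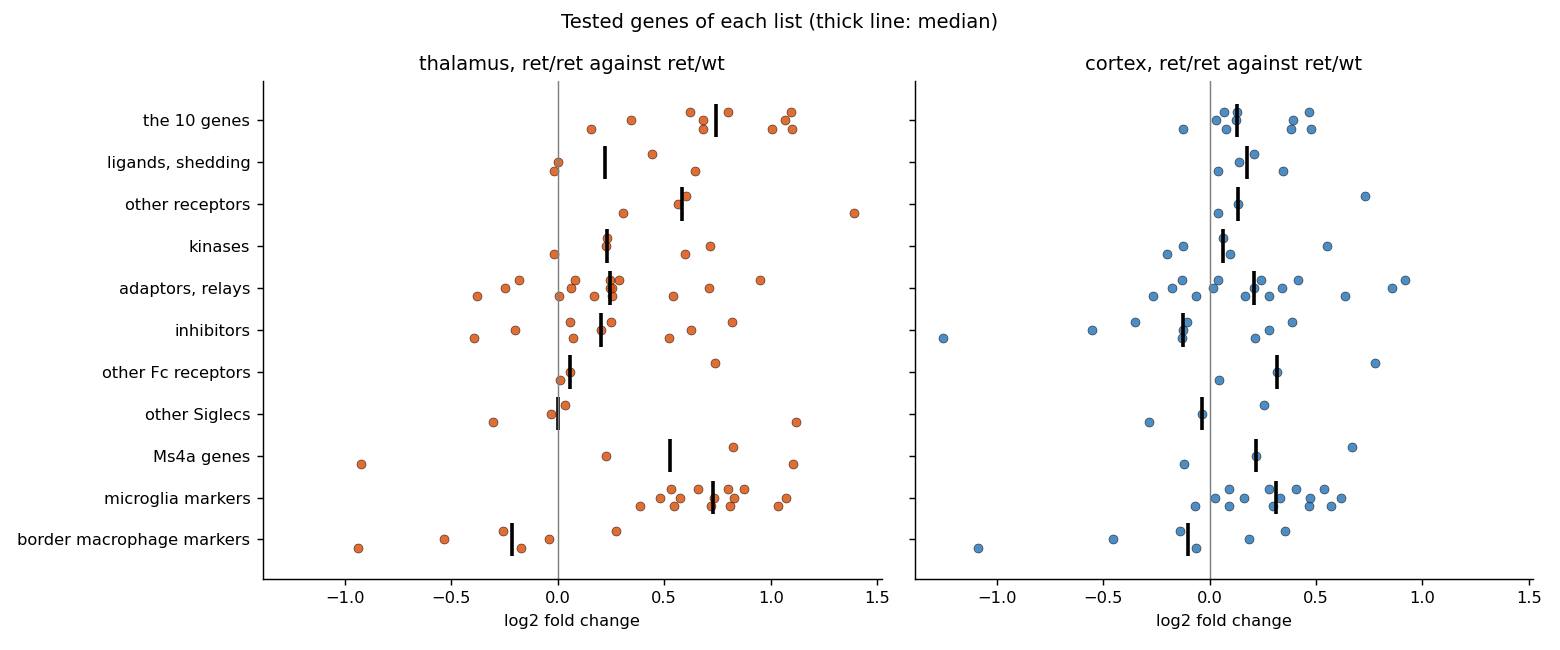
Log2 fold change of ret/ret against ret/wt for every tested gene of each list, in thalamus (left) and cortex (right); each point is a gene and the thick line the list's median. The 10 genes (median 0.74) and the microglia markers (0.73) stand to the right in thalamus, and in cortex these medians were 0.13 and 0.31.

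The genes whose level followed Trem2 most closely were sought over the 16 libraries, by Pearson correlation of log2 CPM among 12771 other genes. The libraries share groups, and pairs of them share an animal, so the values are a description. Complement C1qc came first (r = 0.93), followed by Rtp4 (0.91), Pisd (0.91), C1qb (0.91) and Cyth4 (0.90). Cst3, C1qa, Laptm5, Ctsd and Csf3r completed the first 10 non-members, with r from 0.86 to 0.89. C1qa, C1qb and C1qc encode the subunits of complement C1q and are also in the microglia marker list. With the group means removed, r with Trem2 was 0.88 for C1qc and 0.93 for Laptm5.

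Among the members, Tyrobp (r = 0.90) ranked 5 and Fcgr2b (r = 0.88) ranked 10 of all 12771 genes in likeness to Trem2. Fcer1g (0.73), Fcgr3 (0.71), Syk (0.65), Fcgr1 (0.61) and Plcg2 (0.59) lay further away, and Cd33 (0.32) and Inpp5d (0.22) furthest. With group means removed, r with Trem2 was 0.82 for Tyrobp, 0.87 for Fcgr2b and 0.50 for Inpp5d. The correlation with the mean of the microglia markers ran from 0.88 for Trem2 and 0.87 for Fcgr2b down to 0.47 for Cd33 and 0.35 for Inpp5d. Fcgr2b and Fcgr3, which share part of their sequence, correlated at 0.80.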

How the data were processed

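RNA of 16 mouse brain samples was sequenced. The deposited table holds expected counts for 21804 genes with Ensembl identifiers: of the nonzero values, 0.453% were whole within 0.001, and column totals differed. The submitters' processing notes name kallisto 0.44.0 and GRCm38.p6, with no role; how transcripts were summed to genes is not given in the sources used here. Libraries were stranded, per the labels' protocols. Totals were 13415391 to 29135064 counts.

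Expected counts were rounded. In R 4.3.3, edgeR 4.0.16 filtered genes (filterByExpr defaults, minimum count 10, minimum total 15), applied TMM and ran the quasi-likelihood test, adjusted by Benjamini-Hochberg at 0.05 over all genes tested. SE is the size of the log2 fold change divided by the square root of F. Each comparison of groups used its 8 libraries, and the interaction all 16, with no term for the animal. DESeq2 1.42.0 was an alternative; others were RLE size factors, no filter, all libraries in 1 fit, a replicate block, leaving out each library, and leaving out the animals with Y-linked reads. Log2 CPM used a prior count of 1. Code was tested on simulated data. Symbols and exon lengths came from GENCODE M21 (99.1% of genes matched).

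Groups and animals came from the labels. Cortex and thalamus with the same number are 1 animal per the labels, and equal numbers across genotypes are different animals. The residuals of such pairs correlated weakly (mean 0.09 in ret/ret, 0.06 in ret/wt). Most thalamus libraries correlated more with the cortex of another animal, so the pairing rests on the labels. The members were named in every comparison. Other list genes were named at an adjusted p under 0.05, or if among the 4 of their list with the smallest p in the thalamus comparison, not all of which are given. Trem2-like genes were the 10 of highest correlation with a mean log2 CPM of at least 1. The members and lists were chosen with earlier results of these data known. The lists hold 136 entries (Prkcd stands in 2 lists), of which 134 were in the table.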

Additional observations from a re-analysis of the deposited data

Results flagged for a closer look

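In ret/ret thalamus the Trem2 level of replicate 1 was 26.0 CPM, against 11.4 to 13.9 CPM in the other 3 libraries. This gap took up 0.83 of the group's range, past Dixon's 95% limit for 4 values. Fcgr2b stood apart in the same library, at 13.4 CPM against 5.79 to 6.84 CPM, with a gap of 0.86 of the range. Among 40 groups examined (10 genes in 4 groups), 2 were past the limit and chance alone gives about 2. The same library had the highest summed microglia (777 CPM), red blood cell (120 CPM) and mast cell markers (13.4 CPM) of its group. The part of these in either value was not tested.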

How the results depend on the processing

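Thalamus differences between genotypes kept their direction in all 14 alternatives for 9 of 10 members, and no member was called in any of them; as edgeR called 0 genes in all in this comparison, the latter says little about stability. Leaving out single libraries gave 0.082 (without ret/wt replicate 4) to 0.89 (without ret/wt replicate 3) for Cd33, 0.44 (without ret/ret replicate 1) to 1.31 (without ret/wt replicate 3) for Fcgr1 and 0.39 (without ret/wt replicate 1) to 0.97 (without ret/wt replicate 4) for Fcer1g. The highest value of each of these 3 had an unadjusted p under 0.05, as had Cd33 (0.96) and Fcgr1 (1.33) without the animals with Y-linked reads. The exception in direction was Plcg2, which ran from -0.0047 to 0.32 when single libraries were left out. The cause was not tested for any change given here. Near 0 in the cortex comparison, leaving out single libraries gave -0.36 to 0.076 for Cd33, -0.13 to 0.31 for Syk, -0.060 to 0.33 for Trem2, -0.11 to 0.45 for Inpp5d, -0.11 to 0.17 for Plcg2 and -0.012 to 0.34 for Fcgr3. Between regions in ret/ret the same gave -0.027 to 0.42 for Cd33, -0.16 to 0.25 for Syk and -0.0097 to 0.35 for Fcgr3. In ret/wt it gave -0.17 to 0.77 for Fcgr1, -0.23 to 0.21 for Trem2, -0.56 to 0.069 for Fcgr2b and -0.091 to 0.38 for Tyrobp. In the interaction it gave -0.12 to 0.83 for Fcgr1, -0.085 to 0.25 for Plcg2 and -0.059 to 0.47 for Fcer1g. With the replicate block, Syk in cortex was -0.066 and Trem2 between regions in ret/wt 0.016; the block changed no member's call. Without the animals with Y-linked reads, Syk between regions in ret/ret was -0.18, Fcgr1 between regions in ret/wt -0.23 and Fcer1g in the interaction -0.11.

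Counts of genes called moved more. DESeq2 called 37 in thalamus (edgeR 0), 38 in cortex (3), 2591 between regions in ret/ret (1398) and 4 in the interaction (0). One fit of all 16 libraries called 3 in thalamus and 7 in cortex. With the replicate block, cortex gave 0, the ret/ret regions 1177 and the ret/wt regions 1487; across genotypes the numbers are shared by different animals, and same-numbered libraries correlated at -0.02 in thalamus and -0.003 in cortex. Without the animals with Y-linked reads, cortex gave 1 and the ret/ret regions 2564. The same animals had the highest cerebellum markers in cortex, and the part of either trait was not tested. Leaving out single libraries gave 0 to 2 in cortex (2 without ret/ret replicate 3). It gave 627 to 2007 between regions in ret/ret, at most 759 without cortex replicate 3 or 4 or thalamus replicate 1, 3 or 4, and 1178 (without cortex replicate 1) to 1797 in ret/wt (1813). Fcgr1, at 25 to 216 counts a library, had the widest SE in the thalamus comparison, 0.52. P-values set a group difference against the spread between libraries, and the floor of 3 counts covers counting error only.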
